A study of Mus musculus with 30 samples.

Results

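The DSS responses of 2 sorted mesenchymal populations of the mouse colon were compared gene by gene, to separate genes that moved alike in both populations from genes whose response depended on the population. Mesenchymal cells are the connective tissue cells below the epithelium. All mice were C57BL/6 and carried 2 alleles, controls included: ColVI-cre, a Cre recombinase under a collagen VI promoter, and the Rosa mTmG reporter. The reporter makes a cell red (Tomato) until Cre acts in it and green (GFP) from then on, daughter cells included, so GFP marks a lineage and not present activity of the promoter. The 12 libraries form 4 groups of 3: GFP-positive and GFP-negative (Tomato in the labels) cells of normal mice, and GFP-positive and GFP-negative cells of mice with colitis induced by DSS (dextran sulfate sodium, which injures the colon epithelium). They are 12 of the 30 samples of the series, and the sources used here give neither the dose and duration of DSS nor the age of the mice. RNA was read near its 3' end, and the values are the authors' normalised read counts.

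Genes were joined by their identifier. DSS against normal cells was listed for 16653 genes in GFP-positive and 16386 genes in GFP-negative cells, of which 15596 stood in both tables. The test used the 13488 of these with a mean of at least 10 normalised counts in 1 of the 4 groups. A response is the mean of the DSS libraries minus that of the normal libraries on the scale log2(value + 1), and the difference is the GFP-positive response minus the GFP-negative response. A positive difference therefore means a larger rise, or a smaller fall, in GFP-positive cells. A change was called where the adjusted p of limma, Benjamini-Hochberg over all 13488 genes, was under 0.05.

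Colon mesenchyme supports the crypts with secreted signals. Wnt proteins and R-spondins sustain stem cells at the crypt base, secreted Wnt inhibitors and bone morphogenetic proteins (BMPs) restrain them, and fibroblast growth factors (FGFs) and ligands of the epidermal growth factor receptor act on epithelial growth and repair. Mesenchymal cells also make the matrix and the enzymes and inhibitors that remodel it, and in inflammation they release chemokines and cytokines that draw and activate leukocytes.

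The libraries summed to 3086264 to 4165207 normalised counts, and 0 pairs of libraries were identical. Markers of fibroblasts were high in every library, with Col1a1 (a chain of collagen I) at 5660 to 15427 and Pdgfra (a growth factor receptor of mesenchymal cells) at 942 to 4009, while the leukocyte gene Ptprc was at 0 to 19, the endothelial gene Pecam1 at 5 to 53 and the epithelial gene Epcam at 1 to 115. The summed level of 7 lymphoid and plasma cell markers was 2955 in replicate 3 of normal GFP-positive cells and 12120 in replicate 3 of normal GFP-negative cells, against 75 to 3033 in the other 10 libraries. Normal GFP-negative replicate 1 stood apart on the third principal component (9.34% of the variance). Nothing in the labels says that replicates came from separate mice, so p-values measure the spread between these libraries. Normal and DSS libraries are numbered apart in the labels, and what goes with that cannot be told apart from DSS in either response, but a factor that moves both populations alike on the log scale drops out of their difference. In bulk libraries, fewer cells of a type and less RNA per cell cannot be told apart.

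The 2 populations answered DSS with largely parallel changes. DSS called 2045 genes in GFP-positive cells (15.2% of those tested; 1037 higher, 7.69%, and 1008 lower, 7.47%) and 2061 genes in GFP-negative cells (15.3%; 1146 higher, 8.5%, and 915 lower, 6.78%). With every library scaled to the same total, the split was 753 higher and 1305 lower in GFP-positive cells and 872 higher and 1156 lower in GFP-negative cells, since this scaling moved the median response of all genes to -0.1313 and -0.1338. Leaving out DSS GFP-positive replicate 2 cut the GFP-positive calls to 933, and leaving out DSS GFP-negative replicate 2 cut the GFP-negative calls to 968.

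Both responses were called for 950 genes, 46.5% of the GFP-positive and 46.1% of the GFP-negative calls, and 947 of them (7.02% of genes tested) moved in the same direction, 555 up (4.11%) and 392 down (2.91%). The 3 that moved in opposite directions were Alcam, Clu and the gene model Gm15344. Of the 1095 genes called in GFP-positive cells alone, 975 had the same sign in GFP-negative cells, and of the 1111 called in GFP-negative cells alone, 1003 had the same sign in GFP-positive cells. Across the 13488 genes, which are not independent replicates, the 2 responses correlated with Pearson's r = 0.695 and Spearman's rho = 0.641. The 2 responses share no library, but whatever goes with the separate numbering of normal and DSS libraries enters both. Its part in this likeness cannot be told apart from that of DSS. A call in 1 population and not in the other does not show that the responses differ.

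**Figure D1:**
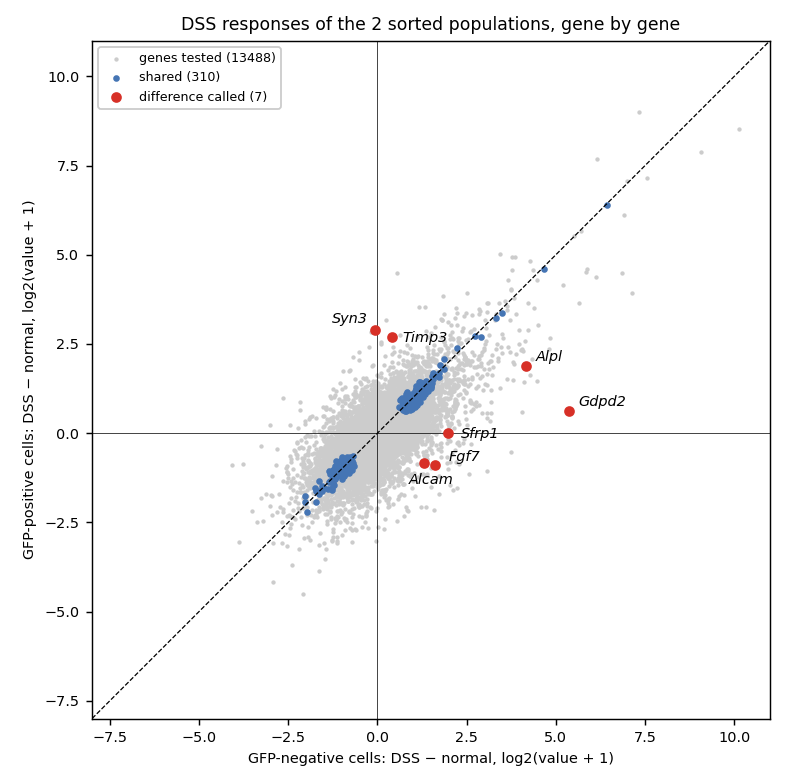
DSS response of GFP-negative cells (x axis) against that of GFP-positive cells (y axis), both as DSS minus normal on the scale log2(value + 1), for 13488 genes, with the 310 shared genes in blue, the 7 genes with a called difference in red and a dashed line of equal responses. Most genes with large responses lie along the dashed line, and the 7 red genes lie off it, 2 above and 5 below.

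The difference itself was called for 7 genes (0.0519% of genes tested), 2 with a larger response in GFP-positive cells (0.0148%) and 5 with a larger response in GFP-negative cells (0.0371%). At an unadjusted p under 0.05 there were 1081 genes (8.01%), 455 with a difference above 0 and 626 below. The median width of the 95% confidence interval to either side of a difference was 0.925 on the log2 scale. At this median width, a difference had to exceed 0.925 (just under 2-fold) to be told from 0 before adjustment. A call over all genes needed more, and the smallest called difference was 3.94-fold (Sfrp1). Genes without a called difference are therefore not shown to respond alike. All 7 called differences kept their sign on the unlogged scale. They fall into 4 kinds: Timp3 and Syn3 were called in GFP-positive cells alone, Sfrp1, Fgf7 and Gdpd2 in GFP-negative cells alone, Alpl rose in both, and Alcam moved in opposite directions.

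**Figure D2:**
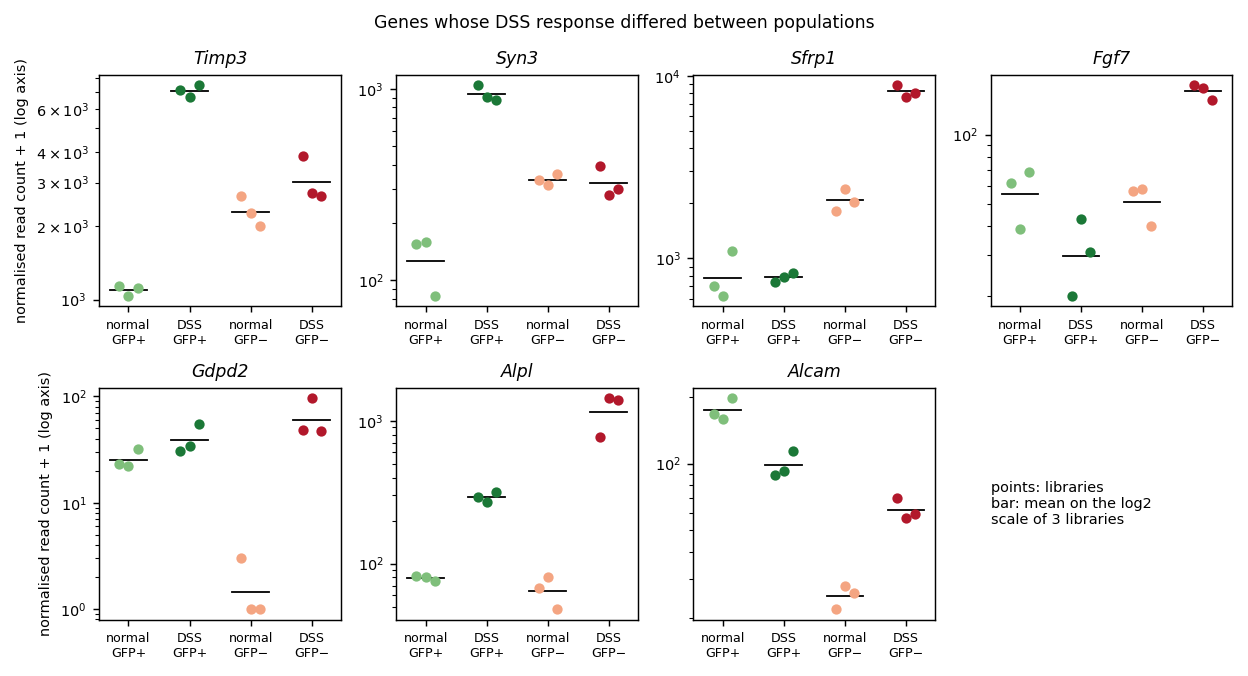
Normalised read counts + 1 (log axes) of the 7 genes with a called difference, by group, with points for the libraries and bars for the mean of 3 libraries on the log2 scale. Timp3 and Syn3 stand highest in DSS GFP-positive cells, and Sfrp1, Fgf7 and Alpl in DSS GFP-negative cells. Gdpd2 stands lowest in normal GFP-negative cells, and its DSS libraries overlap between the populations. For Alcam the population gap narrows in DSS.

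Timp3, a secreted inhibitor of matrix metalloproteinases that binds to the extracellular matrix, lies on chromosome 10 (mm10, 86300372 to 86349506, plus strand). Its normalised counts were 1131, 1034 and 1114 in normal and 7129, 6682 and 7498 in DSS GFP-positive cells. In GFP-negative cells they were 2655, 2260 and 1988 in normal and 3852, 2711 and 2650 in DSS mice. All DSS GFP-positive libraries were above all others, while the normal and DSS ranges of GFP-negative cells overlapped by 1 library (2650 against 2655). The response was 2.70 in GFP-positive cells (6.49-fold, adjusted p = 8.13e-07) and 0.40 in GFP-negative cells (adjusted p = 0.239), and the difference was 2.29 (SE 0.318, adjusted p = 0.00694). The order of the populations turned with it: GFP-positive cells were lower than GFP-negative cells in normal mice (-1.06, adjusted p = 0.00512) and higher in DSS mice (1.23, adjusted p = 0.00134). Leaving out DSS GFP-negative replicate 3 ended the call of the difference (2.199, adjusted p = 0.0511).

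Syn3 encodes a synapsin, a protein family of synaptic vesicles, and spans 86055125 to 86498896 on the minus strand of chromosome 10, with Timp3 inside it. It had 154, 157 and 82 normalised counts in normal and 1044, 909 and 877 in DSS GFP-positive cells. GFP-negative cells had 331, 313 and 358 in normal and 396, 279 and 297 in DSS mice. Again the DSS GFP-positive libraries stood above all others, and the difference was 2.95 (SE 0.352, adjusted p = 0.00274). In the GENCODE annotation 1 Syn3 exon overlaps Timp3 and shares 1733 bases with a Timp3 exon, and Syn3 stood at 7.36 to 18.0 counts per 100 Timp3 counts in the 12 libraries. Whether reads were counted by strand is not given in the sources used here, so reads of the 2 genes cannot be told apart. Timp3 and Syn3 are counted as 2 genes in what follows, but their 2 calls are not shown to be separate.

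The RefSeq promoter window of Timp3 is shown because Timp3 is the more abundant of the called genes whose response was called in GFP-positive cells alone. The 210 bases before the GENCODE start of the gene (GRCm38.p6, chr10:86300162-86300371, plus strand) hold 0 matches to the 5 motifs searched, and so no capitals:
Timp3: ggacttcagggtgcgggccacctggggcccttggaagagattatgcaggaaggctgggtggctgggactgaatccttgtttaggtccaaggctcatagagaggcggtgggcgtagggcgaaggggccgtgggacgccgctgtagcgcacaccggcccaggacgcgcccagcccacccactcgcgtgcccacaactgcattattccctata
The motifs, on both strands, were GGGA and CC with 4 bases between them for NF-kB, TGANTCA for AP-1, TTCNNNGAA for STAT, CTTTGA for TCF/LEF and GGGCGG for the GC box. They occurred in 17.6%, 6.75%, 7.02%, 13.8% and 32.7% of the 32851 RefSeq promoters of 250 bases. In the 12359 promoters of genes tested here the shares were 22.7%, 4.48%, 6.08%, 10.6% and 57.1%. A GC box lies in the next bases of the same window, 15 to 10 bases before the RefSeq start.

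Of the other inhibitors of this family, Timp1 and Timp2 were tested. Timp1, which is secreted and soluble, had 77, 60 and 63 counts in normal and 132, 69 and 73 in DSS GFP-positive cells. It rose in GFP-negative cells, from 52, 94 and 69 to 585, 275 and 373 (2.47, adjusted p = 6.05e-05), with a difference of -2.08 that did not pass (adjusted p = 0.15). Timp2 was the most abundant, at 6077 to 16284 counts, and its difference was -0.13 (95% confidence interval -0.80 to 0.55). The summed level of the 12 pericyte markers found in both tables was 1377 to 1395 in the normal libraries of GFP-positive cells and 3144 to 3887 in the DSS ones. The GFP-negative sums lay between 1260 and 1400 in normal and between 1788 and 2426 in DSS mice, so the sum was highest where Timp3 was. Its part in the Timp3 result was not tested.

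Sfrp1, a secreted protein that binds Wnt ligands and inhibits their signalling, lies on chromosome 8 (23411502 to 23449632, plus strand). It had 699, 621 and 1098 counts in normal and 740, 786 and 826 in DSS GFP-positive cells. GFP-negative cells went from 1818, 2400 and 2044 to 8886, 7666 and 8080. The 2 states overlapped in GFP-positive cells and lay far apart in GFP-negative cells. The responses were 0.00 (95% confidence interval -0.50 to 0.51) and 1.98 (3.95-fold, adjusted p = 3.83e-05), with a difference of -1.98 (SE 0.336, adjusted p = 0.0422). The gap between the populations widened from -1.41 in normal to -3.39 in DSS mice. This call was kept on leaving out normal GFP-positive replicate 2 or normal GFP-negative replicate 1 or 2, and lost on leaving out any 1 of the other 9 libraries (adjusted p 0.0682 to 0.167, difference -2.058 to -1.733). With all 12 libraries it was lost in 3 of 12 other ways of processing, namely quantile normalisation (adjusted p = 0.0788) and the replicate number as a block within each state (0.0565) or across all groups (0.0549).

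Of 11 secreted Wnt inhibitors on the list, 7 were tested, and apart from Sfrp1, which was chosen for its difference, 0 of 6 had a called difference. Frzb, a relative of Sfrp1, rose in GFP-negative cells (1.77, adjusted p = 0.00112) and by 1.16 in GFP-positive cells (adjusted p = 0.0191). Its difference was -0.61 (95% confidence interval -1.53 to 0.31), and the GFP-positive call was lost without normal GFP-positive replicate 1 or DSS GFP-positive replicate 1 or 3 (adjusted p 0.0589 to 0.0962). Wif1, which binds Wnt ligands, stood in the GFP-positive table alone, at 159, 214 and 147 counts in normal and 245, 407 and 287 in DSS cells, and has no difference. The median difference of the 6 without Sfrp1 was -0.30, against -0.02 over all genes tested. Of these 6, 4 had a difference below 0 (66.7%, against 51.3% of all genes). An unadjusted p under 0.05 was reached by 1 (16.7%, against 8.01%), with a difference below 0. The lowest difference of the list was -2.88, further from 0 than that of Sfrp1, and was not called.

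Fgf7, keratinocyte growth factor, is made by mesenchymal cells and acts on a receptor of epithelial cells. It lies on chromosome 2 (126034658 to 126091185, plus strand) and overlaps Fam227b on the other strand, which reached at most 44 counts. Fgf7 had 61, 38 and 68 counts in normal and 19, 42 and 30 in DSS GFP-positive cells. GFP-negative cells had 56, 57 and 39 in normal and 163, 158 and 140 in DSS mice. The populations overlapped in normal mice (gap 0.11, 95% confidence interval -0.53 to 0.75) and were apart in DSS mice (-2.37, adjusted p = 4.87e-05). The response was 1.60 in GFP-negative cells (adjusted p = 0.00218) and -0.88 in GFP-positive cells (adjusted p = 0.0599), and the difference was -2.48 (SE 0.431, adjusted p = 0.0462). Leaving out DSS GFP-positive replicate 2, normal GFP-positive replicate 2 or normal GFP-negative replicate 1 kept the call, and leaving out any 1 of the other 9 libraries lost it (adjusted p 0.0693 to 0.167, difference -2.574 to -2.192). With all 12 libraries it was lost in 5 of 12 other ways of processing (adjusted p 0.0511 to 0.075): a pseudocount of 0.5, quantile normalisation, no robust variance, and the replicate number as a block within each state or across all groups.

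The 250 bases before the start of Fgf7 are shown for the gene whose normal level was alike in both populations and whose DSS levels were not. The window (GRCm38.p6, chr2:126034408-126034657, plus strand) holds 0 matches to the 5 motifs above:
Fgf7: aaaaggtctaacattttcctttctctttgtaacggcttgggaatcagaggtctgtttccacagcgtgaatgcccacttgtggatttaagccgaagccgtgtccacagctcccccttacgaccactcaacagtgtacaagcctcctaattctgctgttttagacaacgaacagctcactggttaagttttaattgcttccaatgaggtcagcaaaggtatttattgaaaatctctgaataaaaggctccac
For the window this says only that these letters are not in it.

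Of 17 FGF, EGF, HGF and IGF ligands, 14 were tested, and 0 of the 13 other than Fgf7 had a called difference. Of these 13, 9 had a difference below 0 (51.3% of all genes tested did), 4 had an unadjusted p under 0.05 (8.01% of all genes), 3 of them below 0 and 1 above, and the median difference was -0.71. The one above 0 was Fgf9, with a difference of 1.29 (unadjusted p = 0.00617). Btc (betacellulin, a ligand of the epidermal growth factor receptor) had 29, 29 and 24 counts in normal and 12, 27 and 17 in DSS GFP-positive cells. In GFP-negative cells it rose from 4, 8 and 6 to 24, 32 and 29 (2.10, adjusted p = 0.00136), with a difference of -2.69 (adjusted p = 0.0923). Ereg (epiregulin) rose in GFP-negative cells from 191, 493 and 563 to 3380, 3419 and 2752 (3.07, adjusted p = 0.000631), and its difference was -1.72 (adjusted p = 0.534). Nrg1 (neuregulin 1) rose in GFP-negative cells from 8, 48 and 32 to 141, 154 and 177 (2.69, adjusted p = 0.00447), below its level in GFP-positive cells in either state (183 to 678). Igf1, insulin-like growth factor 1, rose in both populations, by 1.53 (adjusted p = 0.000455) and 1.22 (adjusted p = 0.00218).

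Alpl, tissue-nonspecific alkaline phosphatase, a membrane enzyme best known from bone mineral formation, rose in both populations and further in GFP-negative cells. It lies on chromosome 4 (137741733 to 137796384, minus strand). Its counts were 81, 80 and 75 in normal and 294, 270 and 316 in DSS GFP-positive cells. In GFP-negative cells they were 67, 80 and 47 in normal and 772, 1435 and 1397 in DSS mice. The normal libraries of the 2 populations overlapped, each DSS group lay above them, and the DSS GFP-negative libraries lay above the DSS GFP-positive ones. The responses were 1.88 (3.69-fold, adjusted p = 0.000184) and 4.17 (18.0-fold, adjusted p = 3.46e-08), and the difference was -2.29 (SE 0.361, adjusted p = 0.0212). The call was kept without normal GFP-positive replicate 2, normal GFP-negative replicate 1 or 2 or DSS GFP-negative replicate 1, and lost on leaving out any 1 of the other 8 libraries (adjusted p 0.0521 to 0.105, difference -2.345 to -2.080).

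The window before the gene's start is shown for the called gene with a rise in both populations. The 250 bases (GRCm38.p6, chr4:137796385-137796634, minus strand) hold 2 overlapping GC boxes, a motif of 57.1% of the promoters of genes tested, in capitals, and 0 matches to the other 4 motifs:
Alpl: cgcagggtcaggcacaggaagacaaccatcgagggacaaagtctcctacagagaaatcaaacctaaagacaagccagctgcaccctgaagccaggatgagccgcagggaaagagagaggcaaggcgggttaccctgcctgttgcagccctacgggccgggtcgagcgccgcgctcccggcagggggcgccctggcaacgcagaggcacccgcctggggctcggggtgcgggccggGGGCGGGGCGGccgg
RefSeq gives a further start inside the gene, which is not shown. Of the 7 called genes, 5 have a promoter in the table.

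Gdpd2, a glycerophosphodiester phosphodiesterase, lies on chromosome X (100729873 to 100738895, plus strand). It had 22, 21 and 31 counts in normal and 30, 33 and 54 in DSS GFP-positive cells. The GFP-negative counts were 2, 0 and 0 in normal and 47, 95 and 46 in DSS mice. In DSS mice the libraries of the 2 populations overlapped. The normal GFP-negative libraries were at or near 0, so the size of the fold depends on the 1 added to each value. The difference was -4.77 (SE 0.658, adjusted p = 0.00694), -5.50 with 0.5 added and -2.46 with 8 added, and it passed with each of these and on leaving out any 1 library. Postn (periostin, a matrix protein) fell in both populations, by 1.65 (adjusted p = 0.0016) and 2.18 (adjusted p = 0.000109).

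Alcam, an adhesion molecule of the immunoglobulin family, lies on chromosome 16 (52248996 to 52454074, minus strand). It had 167, 158 and 196 counts in normal and 88, 92 and 113 in DSS GFP-positive cells. GFP-negative cells held 21, 27 and 25 in normal and 69, 56 and 58 in DSS mice. The 4 groups did not overlap, and the gap between the populations narrowed from 2.79 in normal mice (adjusted p = 5.63e-07) to 0.67 in DSS mice (adjusted p = 0.0751). Alcam fell in GFP-positive cells by 0.83 (adjusted p = 0.0218) and rose in GFP-negative cells by 1.29 (adjusted p = 0.00113), and the difference was -2.12 (SE 0.319, adjusted p = 0.0148). The fall was lost without normal GFP-positive replicate 3 or DSS GFP-positive replicate 1 or 2 (adjusted p 0.081 to 0.085). The difference was lost without any 1 of the same libraries or of DSS GFP-negative replicate 1 or 3 (adjusted p 0.0511 to 0.0982), and with the replicate number as a block within each state (adjusted p = 0.0565).

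Of 20 tested adhesion genes, 0 of the 19 other than Alcam had a called difference (0.0519% of all genes did). Of these 19, 13 had a difference below 0 (68.4%, against 51.3% of all genes), with a median of -0.27. An unadjusted p under 0.05 was reached by 4 (21.1%, against 8.01%), all of them below 0. Vcam1, which binds leukocytes, rose in both populations, with 308 to 413 counts in normal and 1049 to 1550 in DSS GFP-positive cells. The GFP-negative cells held 775 to 861 in normal and 4412 to 6485 in DSS mice. Its difference was -0.87 (95% confidence interval -1.55 to -0.19, adjusted p = 0.516). Chl1, an adhesion molecule known from neurons, had the largest of the shared rises and is described with them. In GFP-negative cells the summed level of 17 telocyte markers, genes known from subepithelial cells beside the crypts, was also higher in DSS mice (4434 to 5857) than in normal mice (3581 to 3976). GFP-positive cells were at 18410 to 20182 in normal and 22503 to 24113 in DSS mice. Its part in the Gdpd2 and Alcam results was not tested.

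A further 7 genes had an adjusted p between 0.05 and 0.1, all with a difference below 0. Lox, Igfbp6 and Btc are on the lists, Clu was called in opposite directions, and Penk, Edn3 and Arxes2 were named after their values were seen. Lox (lysyl oxidase, which crosslinks collagen and elastin) had 276, 361 and 333 counts in normal and 360, 441 and 383 in DSS GFP-positive cells. In GFP-negative cells it rose from 255, 440 and 289 to 1291, 1317 and 1438 (2.08, adjusted p = 1.46e-05), and the difference was -1.78 (adjusted p = 0.0556). Clu (clusterin, a secreted chaperone) went from 49, 51 and 73 to 32, 22 and 23 in GFP-positive cells and from 17, 33 and 25 to 76, 62 and 47 in GFP-negative cells (difference -2.42, adjusted p = 0.0556).

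Penk (the precursor of enkephalin peptides) fell in GFP-positive cells, from 239, 472 and 364 to 109, 87 and 89 (-1.86, adjusted p = 0.000424). In GFP-negative cells it had 326, 292 and 387 counts in normal and 358, 316 and 616 in DSS mice (difference -2.16, adjusted p = 0.0556). Igfbp6, which binds insulin-like growth factors, fell in both populations, from 236, 322 and 154 to 10, 9 and 8 in GFP-positive and from 1173, 587 and 519 to 230, 148 and 132 in GFP-negative cells. The responses were -4.52 (adjusted p = 1.31e-07) and -2.10 (adjusted p = 0.000427), and the difference was -2.42 (adjusted p = 0.0794). Edn3 (endothelin 3) went from 63, 87 and 87 to 21, 20 and 27 in GFP-positive cells and from 4, 10 and 8 to 16, 10 and 23 in GFP-negative cells (difference -2.81, adjusted p = 0.0794). Arxes2 had 23 to 39 counts in all 6 GFP-positive libraries and rose in GFP-negative cells from 29, 19 and 12 to 107, 121 and 110 (difference -2.28, adjusted p = 0.0904).

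**Figure D3:**
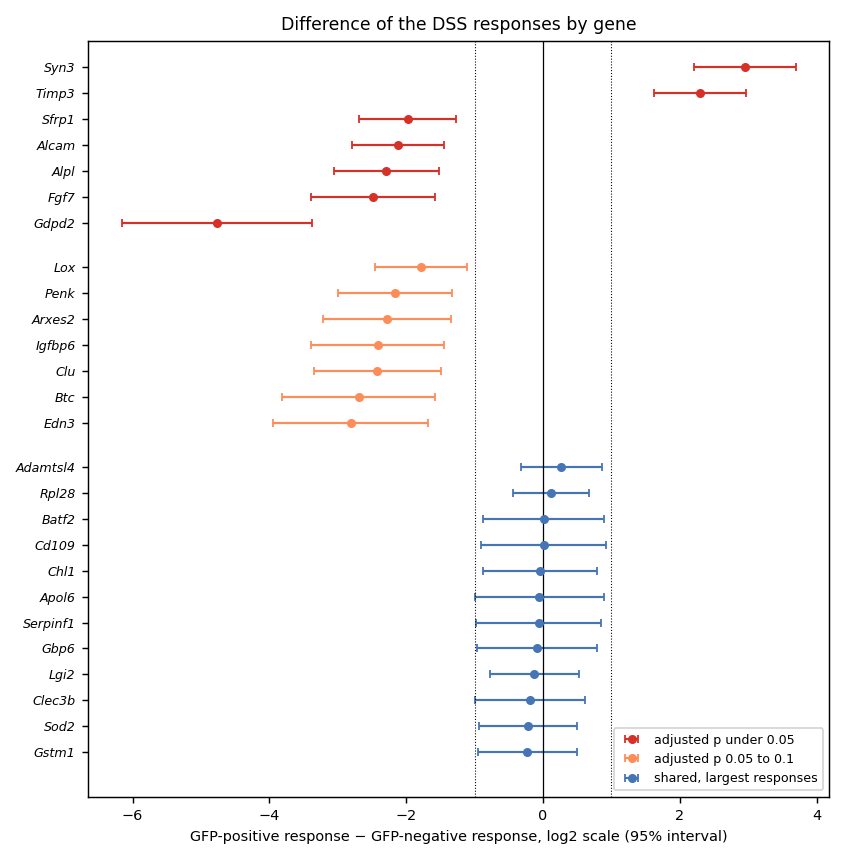
Difference of the DSS responses (GFP-positive minus GFP-negative, log2 scale) with its 95% confidence interval for the 7 called genes, the 7 genes with an adjusted p of 0.05 to 0.1 and the 12 shared genes with the largest responses; dotted lines mark a 2-fold difference in either direction. The intervals of the shared genes lie within the dotted lines by the rule that chose them, and those of the called genes lie outside.

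A gene was taken as shared where both responses were called in the same direction and the 95% confidence interval of the difference lay within 2-fold. This held for 310 genes (2.3% of genes tested), 169 rises and 141 falls, or 32.7% of the 947. For the others of the 947, the interval reached beyond this band, by its width or its position, or the difference was called. With a band of 1.5-fold 0 genes met the rule.

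The 6 largest shared rises were those of Chl1, Apol6, Lgi2, Gbp6, Batf2 and Sod2. Chl1 went from 15, 17 and 31 to 1547, 2006 and 1768 counts in GFP-positive cells and from 67, 39 and 36 to 3483, 4315 and 4356 in GFP-negative cells. The responses were 6.40 (84.2-fold) and 6.44 (86.7-fold), and the difference was -0.04 (95% confidence interval -0.88 to 0.79). Gbp6 (a guanylate-binding protein induced by interferon) rose by 3.22 and 3.31, Apol6 (an apolipoprotein L) by 4.60 and 4.66 and Batf2 (a transcription factor) by 2.74 and 2.73. Sod2, the mitochondrial superoxide dismutase, rose by 2.70 and 2.91, and Lgi2 by 3.37 and 3.50. Every DSS library was above every normal library for Chl1, Gbp6 and Sod2 within each population.

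The largest shared falls included Gstm1 (a glutathione transferase), from 520, 677 and 687 to 127, 117 and 161 counts in GFP-positive and from 862, 870 and 719 to 289, 194 and 155 in GFP-negative cells. Rpl28 (a protein of the ribosome) fell by 1.93 and 2.04, and its difference was 0.12 (95% confidence interval -0.44 to 0.68). Adamtsl4, a matrix protein, fell by 1.76 and 2.03, and Cd109, a membrane protein, by 1.63 and 1.64. Clec3b (tetranectin) and Serpinf1 (pigment epithelium-derived factor) fell by 1.92 and 1.72 and by 1.72 and 1.65, and both are on the list of Cd34-positive fibroblast markers. Of the 21 tested markers of that list, 12 fell in both populations (2.91% of all genes tested did) and 1 rose in both (4.11%). Of the 21 differences 17 were below 0 (81%, against 51.3% of all genes), with a median of -0.49 and 0 called. An unadjusted p under 0.05 was reached by 6 (28.6%, against 8.01%), all of them below 0. Cd34 itself fell from 622, 679 and 496 to 275, 203 and 278 in GFP-positive and from 4946, 3854 and 2477 to 1526, 1531 and 1480 in GFP-negative cells, with a difference of 0.01 (95% confidence interval -0.75 to 0.76).

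Many inflammatory mediators rose in both populations, with 0 called differences in the lists of chemokines, cytokines, acute phase and complement, interferon-stimulated and major histocompatibility complex genes. At an unadjusted p under 0.05, which 8.01% of all genes reached, these lists held 4 of 12 CC chemokines (33.3%), 2 of 12 CXC chemokines (16.7%), 4 of 19 cytokines (21.1%), 3 of 16 acute phase and complement genes (18.8%), 5 of 35 interferon-stimulated genes (14.3%) and 1 of 20 histocompatibility genes (5%). For cytokines, interferon-stimulated and histocompatibility genes, all of these had a difference below 0. CC chemokines had 2 below and 2 above, CXC chemokines 1 below and 1 above, and acute phase and complement genes 2 below and 1 above. Of 12 tested CXC chemokines, which draw neutrophils and lymphocytes, 8 rose in both, against 4.11% of all genes tested. Cxcl5, a neutrophil attractant, went from 19, 4 and 11 to 1600, 1370 and 1593 counts in GFP-positive and from 7, 36 and 36 to 4954, 3379 and 4351 in GFP-negative cells. The responses were 7.16 and 7.56, and the difference was -0.40 with a 95% confidence interval of -2.14 to 1.34, too wide for the shared group. Cxcl13, which draws B cells, rose by 4.93 and 3.84, and Ccl2, which draws monocytes, by 3.18 and 3.29.

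Of 12 tested CC chemokines 5 rose in both, and of 16 acute phase and complement genes 9 rose in both and 1 fell in both. Over all genes tested, 4.11% rose in both and 2.91% fell in both. Saa3 (serum amyloid A3) went from 10, 10 and 13 to 3690, 4573 and 4931 counts in GFP-positive and from 3, 4 and 17 to 9172, 6453 and 8633 in GFP-negative cells. Cfb (complement factor B) rose by 4.58 and 3.78, to 3212 to 3852 counts in DSS GFP-positive and 8439 to 12886 in DSS GFP-negative cells. Interferon-stimulated genes rose in both in 18 of 35 cases and class I and II histocompatibility genes in 10 of 20. Of the interferon-stimulated genes 28 had a difference below 0 (80%, against 51.3% of all genes), with a median of -0.58. Of the histocompatibility genes 13 did (65%), with a median of -0.14.

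Among 19 tested cytokines 6 rose in both populations (4.11% of all genes tested did) and 1 fell in both (2.91%). A difference below 0 was seen in 12 (63.2%, against 51.3% of all genes). Csf3 (granulocyte colony-stimulating factor) went from 2, 2 and 4 to 85, 59 and 95 counts in GFP-positive and from 1, 5 and 0 to 160, 350 and 334 in GFP-negative cells. Its difference was -2.39 (unadjusted p = 0.00553, adjusted p = 0.456). Lif (leukemia inhibitory factor) rose by 2.34 and 4.03, with a difference of -1.70 (adjusted p = 0.482). Il6 (interleukin 6) overlapped between normal libraries of the 2 populations and was 377 to 521 in DSS GFP-positive and 1978 to 2864 in DSS GFP-negative cells, with a difference of -0.26 and a 95% confidence interval of -1.99 to 1.48.

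**Figure D4:**
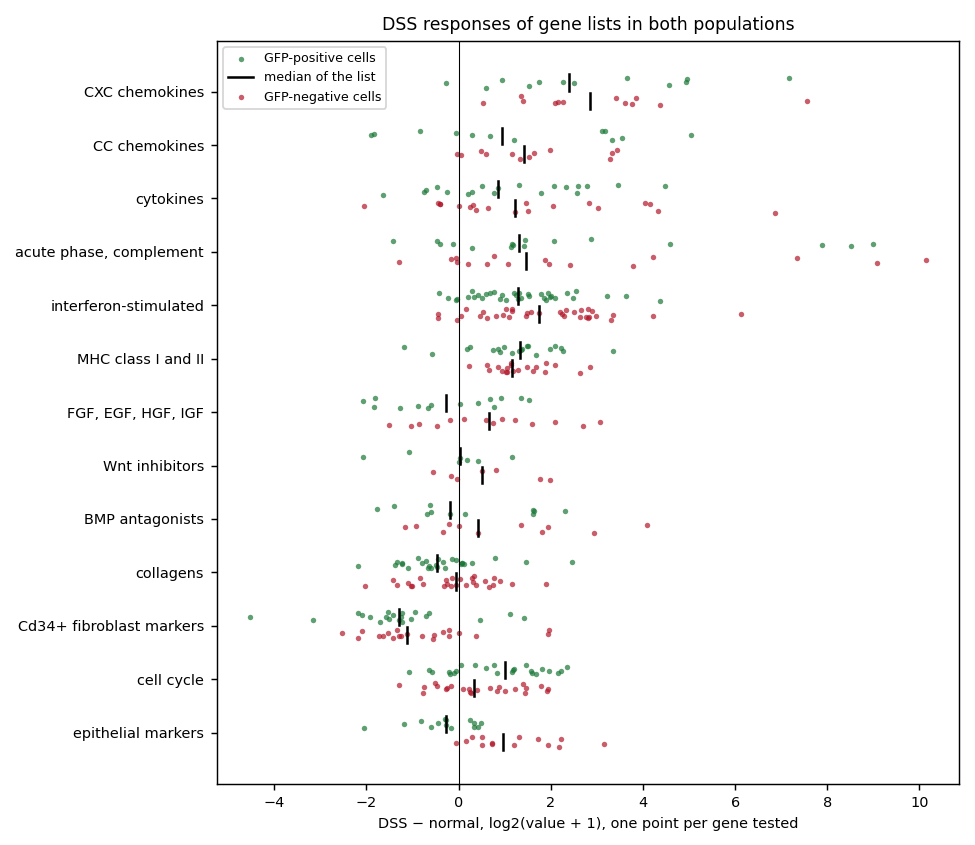
DSS responses (DSS minus normal on the scale log2(value + 1)) of the tested members of 13 gene lists, in GFP-positive cells (green) and GFP-negative cells (red), with the median of each list as a black bar. Chemokine, acute phase, interferon and histocompatibility lists lie to the right in both populations and Cd34-positive fibroblast markers to the left in both, while the medians of growth factors, BMP antagonists and epithelial markers lie on opposite sides of 0.

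Wnt ligands and R-spondins had 0 called differences among 10 tested (0.0519% of all genes were called). An unadjusted p under 0.05 was reached by 2 (20%, against 8.01% of all genes), 1 with a difference below 0 and 1 above. A difference below 0 was seen in 4 (40%, against 51.3%). Rspo3, an R-spondin that amplifies Wnt signals, had 10, 13 and 10 counts in normal and 38, 12 and 13 in DSS GFP-positive cells. It rose in GFP-negative cells from 64, 47 and 34 to 200, 153 and 246 (2.04, adjusted p = 0.00199), with a difference of -1.35 (adjusted p = 0.544). Wnt5a, a ligand of GFP-positive cells at 726 to 1435 counts against 84 to 126 in GFP-negative cells, had a difference of 0.31 (95% confidence interval -0.33 to 0.96).

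BMP ligands and BMP antagonists had 0 called differences among 12 and 11 tested (0.0519% of all genes were called). An unadjusted p under 0.05 was reached by 3 ligands (25%, against 8.01% of all genes), 1 with a difference below 0 and 2 above. It was also reached by 3 antagonists (27.3%), all below 0. A difference below 0 was seen in 6 ligands (50%) and 9 antagonists (81.8%), against 51.3% of all genes. The median differences were 0.03 and -0.41. Grem1 (gremlin 1, a BMP antagonist) rose in both populations, from 42, 77 and 44 to 260, 94 and 172 counts in GFP-positive and from 936, 1057 and 1009 to 3421, 3170 and 3899 in GFP-negative cells. Its difference was -0.19 (95% confidence interval -1.11 to 0.73). Chrdl2 (chordin-like 2) rose from 6, 2 and 3 to 17, 22 and 24 and from 8, 5 and 4 to 148, 90 and 97, with a difference of -1.77 (adjusted p = 0.474). Of the ligands, Bmp6 fell in GFP-negative cells from 404, 551 and 571 to 265, 184 and 176 (-1.29, adjusted p = 0.00156) and had a response of -0.19 in GFP-positive cells (adjusted p = 0.616). The difference of Bmp6 was 1.10 (adjusted p = 0.439).

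Of 27 tested collagen genes 0 had a called difference. An unadjusted p under 0.05 was reached by 12 (44.4%, against 8.01% of all genes), 8 with a difference below 0 and 4 above. A difference below 0 was seen in 19 (70.4%, against 51.3%), with a median of -0.35. Col3a1 (a chain of collagen III) had 21397, 27823 and 28136 counts in normal and 11058, 8547 and 10918 in DSS GFP-positive cells. In GFP-negative cells it had 13033, 32429 and 24457 in normal and 33847, 26269 and 25847 in DSS mice, which overlap. It fell in GFP-positive cells by 1.34 (adjusted p = 0.00968; 0.0578 without DSS GFP-positive replicate 2), and its difference was -1.72 (unadjusted p = 0.00124, adjusted p = 0.286). Col1a1 fell in GFP-positive cells by 1.10 (adjusted p = 0.00686) and had a response of -0.17 in GFP-negative cells (adjusted p = 0.677). Col4a6 and Col5a3 had the largest differences above 0 of the list, at 1.43 (unadjusted p = 0.0193, adjusted p = 0.534) and 1.30 (unadjusted p = 0.00499, adjusted p = 0.456), and both fell in GFP-negative cells, by 2.04 and 1.01. The Col5a3 fall was lost without normal GFP-negative replicate 1 or DSS GFP-negative replicate 2 or 3 (adjusted p 0.0643 to 0.0922). Col18a1, a collagen of basement membranes, rose in both populations, by 2.46 and 1.89.

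Mmp3, Mmp10 and Mmp13, secreted metalloproteinases, rose in both populations. Mmp3 (stromelysin 1) went from 46, 79 and 52 to 1549, 1310 and 2214 counts in GFP-positive and from 145, 93 and 100 to 2344, 1708 and 2499 in GFP-negative cells. Mmp13 (a collagenase) went from 15, 6 and 16 to 551, 418 and 794 and from 5, 5 and 0 to 115, 143 and 206, and Mmp10 rose by 2.67 and 3.51. Their differences of 0.55, 0.00 and -0.84 had 95% confidence intervals of -0.26 to 1.35, -1.77 to 1.78 and -1.88 to 0.21. Of 25 tested matrix enzymes 4 rose in both populations (4.11% of all genes tested did) and 1 fell in both (2.91%). A called difference was found for 0, and 3 had an unadjusted p under 0.05 (12%, against 8.01% of all genes), all below 0. A difference below 0 was seen in 17 (68%, against 51.3%).

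Genes of the cell cycle rose in both populations in 8 of 24 cases (4.11% of all genes tested did) and fell in both in 1 (2.91%). Top2a (a topoisomerase of dividing cells) went from 42, 34 and 78 to 198, 109 and 176 counts in GFP-positive and from 13, 15 and 25 to 48, 43 and 54 in GFP-negative cells. Birc5 (survivin) rose by 2.23 and 1.94. The median difference of the 24 genes was 0.31, 0 were called, and 4 had an unadjusted p under 0.05 (16.7%, against 8.01% of all genes). All 4 had a difference above 0, and 6 of the 24 differences were below 0 (25%, against 51.3% of all genes).

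Markers of other cell types moved with the groups as follows. Of 14 tested epithelial markers 13 had a difference below 0, with a median of -1.47 and 0 called, and 2 had an unadjusted p under 0.05. Summed, they reached 128 to 611 counts in normal and 260 to 309 in DSS GFP-positive cells. The GFP-negative sums were 123 to 565 in normal and 398 to 1051 in DSS mice, with the highest value in replicate 3 of DSS GFP-negative cells. Of 11 tested pericyte markers 6 had an unadjusted p under 0.05, 3 with a difference above 0 and 3 below, and 0 were called. The differences of the 11 ran from -1.38 to 2.39, the highest being that of Rgs5. Rgs5, a defining pericyte gene, rose in GFP-positive cells from 83, 81 and 205 to 1528, 1412 and 1052 (3.55, adjusted p = 0.000103), with a response of 1.16 in GFP-negative cells (adjusted p = 0.0751) and a difference of 2.39 (adjusted p = 0.286). The summed myeloid markers were higher in DSS than in normal libraries of both populations, at 501 to 981 against 233 to 449 in GFP-positive and 768 to 931 against 316 to 588 in GFP-negative cells. The 8 glial and neuronal markers found in both tables summed to 252 to 379 in normal and 778 to 856 in DSS GFP-positive cells, and to 395 to 625 and 1077 to 1297 in GFP-negative cells. Most of that sum was Gpm6b (a membrane glycoprotein of neurons and glia), which rose by 1.65 in GFP-positive cells (adjusted p = 0.000165) and also rose in GFP-negative cells (adjusted p = 0.00169). Its difference of 0.45 was the highest of the 6 tested markers of that list. The difference was below 0 in 5 of the 6, 2 of them with an unadjusted p under 0.05, and 0 were called. The 4 markers of interstitial cells of Cajal found in both tables summed to 363 to 499 in normal and 154 to 186 in DSS GFP-positive cells, and to 103 to 135 and 76 to 161 in GFP-negative cells. The part of these markers in the differences and in the shared rise of Chl1 was not tested.

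**Figure D5:**
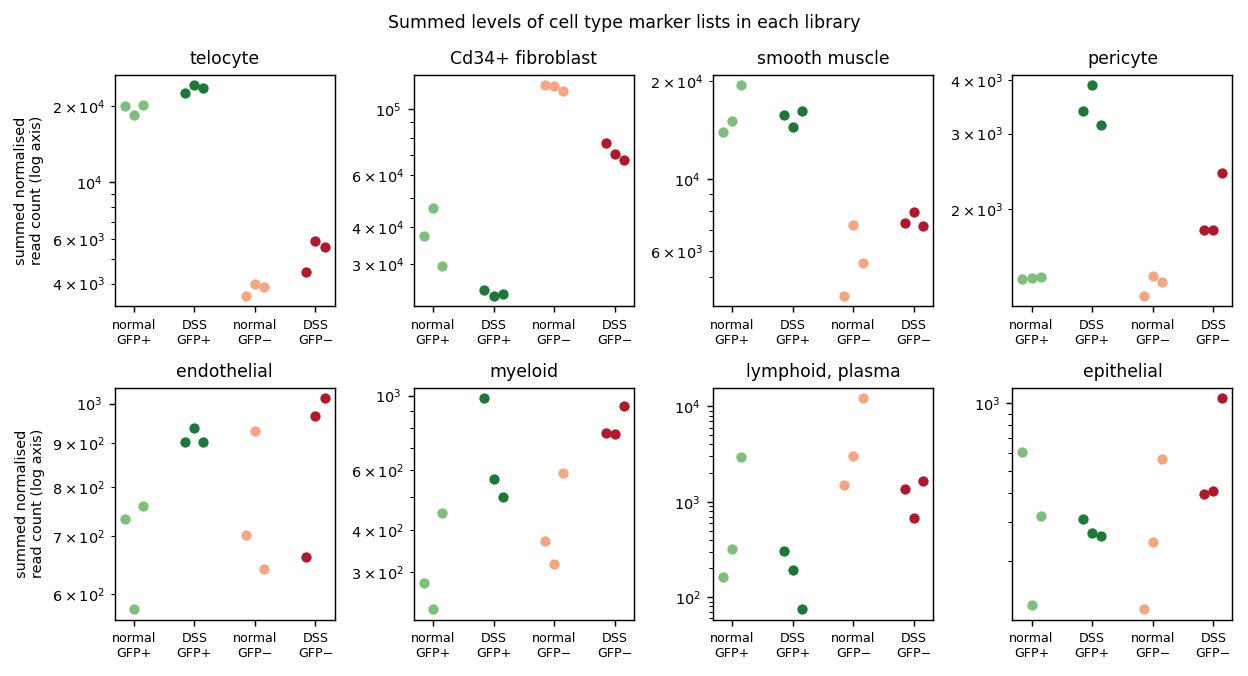
Summed normalised read counts (log axes) of 8 lists of cell type markers in each of the 12 libraries, by group. Telocyte and smooth muscle markers stand higher in GFP-positive cells and Cd34-positive fibroblast markers in GFP-negative cells in both states, pericyte markers stand highest in DSS GFP-positive cells, and replicate 3 of both normal groups is highest in its group for lymphoid and plasma cell markers.

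Genes that stood in 1 of the 2 joined tables have no difference. There were 1057 in the GFP-positive table alone and 790 in the GFP-negative table alone, of which 42 and 52 had a mean of at least 10 in 1 group.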

How the data were processed

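RNA of the 12 sorted colon libraries was prepared on RNeasy columns, kept at an integrity number over 7 and sequenced as Lexogen QuantSeq 3' libraries on an Ion Proton, per the labels' protocols. The submitters' processing notes name TopHat2 and Bowtie2, the build mm10 and the DESeq package that the authors used. The sources used here give no versions, counting program, use of strand or annotation. Each deposited score is a normalised read count, per the file headers, and is a whole number after the authors' scaling, so a count test was not used.

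The 2 tables of DSS against normal cells were joined by gene identifier. The ratio of each library's values to those in the tables of GFP-positive against GFP-negative cells lay between 0.836 and 0.844 for normal and between 1.17 and 1.18 for DSS libraries, and a constant scale between tables drops out of the difference. For 25 genes the ratio in all normal GFP-positive libraries differed by over 1.25-fold from the library's. limma 3.58.1 in R 4.3.3 was fitted on log2(value + 1) for genes whose mean reached 10 in 1 group, over the 4 groups together, with trend and robust variance and no replicate block. All p-values are two-sided, and adjusted ones are Benjamini-Hochberg over the 13488 genes. The script was tested on simulated data. The lowest depth was 3086264 normalised counts, and the median interval of a difference was narrower among the 9095 genes whose mean reached 50 in 1 group than over all genes.

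Members, gene lists and tests were chosen with earlier results of these data known. Named were the 5 genes that define the comparison, called differences with a mean of at least 50, up to 10 per direction, the 6 largest shared rises and falls, genes called in opposite directions, and list members. Alternatives were the pseudocount, the filter, the scaling, the variance, replicate blocks, the other tables and leaving out each library. Promoters are from RefSeq (GRCm38.p6). A count of motifs over shared genes is void, as 123 of 169 shared rises and 91 of 141 shared falls have a promoter in that table.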

Additional observations from a re-analysis of the deposited data

Results flagged for a closer look

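For 7 genes the response to DSS differed between GFP-positive and GFP-negative cells by the test of the difference itself (limma, adjusted p under 0.05, 3 libraries in each of the 4 groups). The values are the GFP-positive response minus the GFP-negative response on the scale log2(value + 1). The response was larger in GFP-positive cells for Syn3 (2.953) and Timp3 (2.294), which overlap in the genome and may be counted from the same reads. It was larger in GFP-negative cells for Gdpd2 (-4.767), Fgf7 (-2.481), Alpl (-2.29) and Sfrp1 (-1.978). For Alcam (-2.119) the GFP-positive cells fell and the GFP-negative cells rose. In all 7 genes the 3 DSS libraries of at least 1 population lay wholly above or below its 3 normal libraries. The genes were chosen by these same libraries, so this separation adds no support to the calls.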

How the results depend on the processing

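The 7 calls of the difference became 13 with a pseudocount of 8 (2 higher, 11 lower), and they numbered 5 to 8 over the other scalings, filters, variance choices and tables. Leaving out 1 library gave 2 to 15 calls: 2 without DSS GFP-negative replicate 3, 3 without normal GFP-positive replicate 3 or DSS GFP-positive replicate 1, 4 without DSS GFP-positive replicate 2 or 3 or DSS GFP-negative replicate 1 or 2, and 15 without normal GFP-negative replicate 1. Syn3 and Gdpd2 passed in 12 of 12 omissions, Timp3 in 11, Alcam in 7, Alpl in 4 and Sfrp1 and Fgf7 in 3 each. Over the 12 other ways of processing Fgf7 passed in 7, Sfrp1 in 9, Alcam in 11 and the other 4 genes in all. No result named here changed sign where it was called.

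With the replicate number as a block within each state the calls numbered 4, with the number as a random effect 12, and with the number across all groups 7. The numbers are not shown to pair the libraries: correlations of same-numbered libraries were -0.194 to 0.142, over 0.1 in 3 of 6 pairs, and 3 of 6 GFP-positive libraries correlated best with their own number.

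Leaving out 1 library gave 933 to 2671 GFP-positive and 968 to 2131 GFP-negative calls (main 2045 and 2061). The gap between populations was called for 1165 genes in normal mice (765 to 1200 with 1 library left out) and for 1332 in DSS mice (950 to 1656). Shared genes numbered 310, 0 with a 1.5-fold band, where fewer intervals can lie inside, and 105 to 341 with 1 library left out. The causes were not tested. The precision differed with the level: the median interval of the difference was 0.810 to either side for the 9095 genes whose mean reached 50 in 1 group, against 0.925 for all.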
